A study of Homo sapiens with 40 samples.

Results

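The arrays described here are the 20 DMSO arrays of a 40-array expression series on LNCaP cells, an androgen-responsive human prostate cancer line, parted by their signal for ETV1. An array was chosen by its ETV1 signal alone: under 200 on the brightest ETV1 probe set placed it in the ETV1-low class, and 200 or more in the ETV1-high class, whatever its line label. This gave 8 ETV1-low and 12 ETV1-high DMSO arrays. Because the measured DMSO signals selected the classes, every class difference in DMSO below is a description without a test. Tests were run only on the other 20 arrays, those of cells given MDV3100.

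The series holds 3 control LNCaP lines labelled sensitive to MDV3100 and 7 LNCaP clones labelled resistant. MDV3100, also called enzalutamide, is an antiandrogen. Cells were seeded in serum-containing medium 3 days before treatment and then received 0.1% DMSO, the solvent, or 10 µM MDV3100 for 24 h. For every line there are 2 arrays per treatment, and the labels number them 1 and 2. Control 1 carries the title D+E-, control 2 the title D+R- and control 3 the title M+R-, none of which the labels explain. The clones are numbered 1, 9, 10, 14, 15, 19 and 24. A culture below means the DMSO array and the MDV3100 array with the same line label and replicate number, and an MDV3100 array takes the class of the DMSO array of its culture. The MDV3100 arrays are therefore second arrays of the same 20 cultures and not further cultures. Whether replicates were grown separately is not stated, so a p-value below speaks of the spread among these arrays, part of which may be technical.

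ETV1 is a transcription factor of the ETS family, whose members bind DNA at a GGAA core, and belongs with ETV4 and ETV5 to the PEA3 subgroup. It is known in prostate cancer as a gene activated by chromosomal rearrangement. In LNCaP cells the ETV1 locus of chromosome 7 is known to have been moved into the region of MIPOL1 on chromosome 14, where it comes under control that is active in prostate cells. High ETV1 is therefore a known feature of the parental line.

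The classes crossed the line labels. The 6 low arrays of replicate 1 were those labelled clones 1, 9, 10, 14, 15 and 24, and the 2 low arrays of replicate 2 were those labelled control 2 and control 3. In replicate 1, 6 of 7 clones and 0 of 3 control lines were low. In replicate 2, 0 of 7 clones and 2 of 3 control lines were low. Of the 10 line labels, 6 were low in replicate 1 and high in replicate 2, 2 were high in replicate 1 and low in replicate 2, and 2, control 1 and clone 19, were high in both. Within replicate 1 the class thus nearly coincides with the resistant label, and within replicate 2 it runs against it. Whether one label stands for the same cells in both replicates is not stated and was not tested, so values given by label, for clones alone or for clone 19 rest on the labels as given.

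The ETV1 signal itself was split by a wide gap. On the 8 low DMSO arrays it was 0.3 at the lowest, 8.4 at the median and 58.8 at the highest. On the 12 high arrays it was 738.6 at the lowest, 1339.2 at the median and 1746.1 at the highest. The low arrays nearest the cut were clone 24 of replicate 1, at 58.8, and clone 9 of replicate 1, at 43.5, and the high ones nearest it were clone 1 of replicate 2, at 738.6, and clone 19 of replicate 1, at 871.2. The lowest high array was 12.6 times the highest low one, and no array lay between them. The other low signals in replicate 1 were 0.3 for clone 1, 15.9 for clone 10, 3.3 for clone 14 and 11.5 for clone 15. In replicate 2 they were 0.3 for control 2 and 5.4 for control 3. The same 2 labels had given 1162.7 and 1344.5 in replicate 1. Control 1 had 1293.3 and 1367.1 in its replicates, and clone 19 had 871.2 and 1607.9. The remaining high arrays, all of replicate 2, were clone 9 at 1172.0, clone 10 at 1333.8, clone 14 at 1746.1, clone 15 at 1514.8 and clone 24 at 1649.0. All 5 ETV1 probe sets separated the classes without overlap, including the dimmest, which ran from 0.4 to 7.8 in the low class and from 34.5 to 79.6 in the high class.

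**Figure D1:**
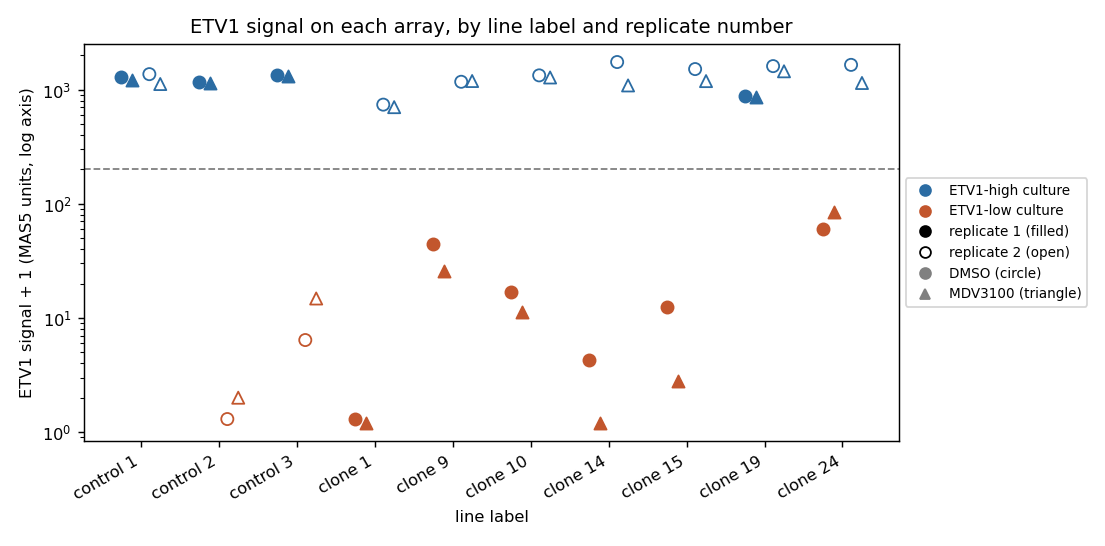
ETV1 signal + 1 (MAS5 units, log axis) on each of the 40 arrays against line label, with circles for DMSO, triangles for MDV3100, filled symbols for replicate 1, open symbols for replicate 2 and a dashed line at the cut of 200. In DMSO the low arrays lie between 0.3 and 58.8 and the high arrays between 738.6 and 1746.1, and 8 of 10 labels have one replicate in each class.

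ETV1 kept its class under MDV3100, on arrays that the rule used only in finding the brightest ETV1 probe set and not in parting the classes. These arrays are of the same cultures that ETV1 had parted in DMSO. Small p-values were therefore likely from the outset, and they speak only of ETV1 staying with its culture. The MDV3100 arrays of ETV1-low cultures had signals of 0.2 at the lowest, 6.1 at the median and 84.1 at the highest. Those of ETV1-high cultures had 702.0, 1165.9 and 1448.5, so the classes did not overlap. On the log2(signal + 16) scale the means differed by 5.42 (n = 8 and 12), with p = 7.94e-06 in a 2-sided exact permutation test over 125970 assignments, the smallest p this design can give. In replicate 1 alone the difference was 5.33 (exact permutation p = 0.00476) and in replicate 2 alone 5.66 (exact permutation p = 0.0222). Among clones alone it was 5.29 (exact permutation p = 0.000333). With labels exchanged only within a replicate number the exact p was 0.000106. The drug moved the ETV1 signal little by comparison: in 11 of 12 high cultures it was lower with MDV3100 than with DMSO, with a median change of -0.08 (range -0.67 to 0.02) on the log2 scale.

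The sequences before the ETV1 gene and before the first 2 genes below that RefSeq's promoter table (GRCh38.p14) holds are printed to show what lies at the start of the genes that most clearly mark the classes. Each runs from 250 bases before to 50 bases after the gene's start, and capitals mark a match to one of the motifs searched. The ETV1 window is chr7:13990653-13990952 on the minus strand, SYT4 is chr18:43277441-43277740 on the minus strand, and LOC105371703 is chr17:27089192-27089491 on the minus strand.
ETV1: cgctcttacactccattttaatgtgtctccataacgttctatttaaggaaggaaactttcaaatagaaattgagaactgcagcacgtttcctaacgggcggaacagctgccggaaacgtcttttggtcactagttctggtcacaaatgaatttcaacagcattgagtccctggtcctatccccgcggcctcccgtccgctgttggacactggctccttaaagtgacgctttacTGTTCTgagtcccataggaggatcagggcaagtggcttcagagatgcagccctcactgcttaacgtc
SYT4: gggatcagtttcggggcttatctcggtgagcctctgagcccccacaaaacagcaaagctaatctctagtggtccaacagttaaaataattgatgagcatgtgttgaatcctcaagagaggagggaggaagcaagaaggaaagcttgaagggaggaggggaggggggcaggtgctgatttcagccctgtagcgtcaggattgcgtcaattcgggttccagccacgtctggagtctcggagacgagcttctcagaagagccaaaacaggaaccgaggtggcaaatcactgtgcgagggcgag
LOC105371703: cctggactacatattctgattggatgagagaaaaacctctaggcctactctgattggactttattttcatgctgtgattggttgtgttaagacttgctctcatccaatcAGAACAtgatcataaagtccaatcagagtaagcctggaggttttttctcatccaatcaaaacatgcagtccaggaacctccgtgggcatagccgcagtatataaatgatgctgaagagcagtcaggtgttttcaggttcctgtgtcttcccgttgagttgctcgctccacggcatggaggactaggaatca
The motifs searched on both strands were the ETS site CCGGAAGT, its core CCGGAAG, which overlaps it, and the hormone response motif AGAACA. ETV1 holds 1 match to AGAACA on the reverse strand, LOC105371703 holds 1 on the forward strand, and SYT4 holds no match to any of them. Among the genes that separated the classes, the core CCGGAAG stood in 17.5% of the 63 promoters found for genes higher in the ETV1-high class and in 8.91% of 101 for genes lower in it. The same core stood in 19.9% of the 9749 promoters of all genes tested and in 10.7% of all 27305 promoters in the table. The full site CCGGAAGT stood in 3.17%, 3.96%, 9.07% and 4.44% of these sets, in the same order. AGAACA stood in 11.1%, 6.93%, 8.76% and 14.9%. These are matches of letters within a short window only.

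Beyond ETV1, genes are described by whether their DMSO signals overlapped between the classes. Of 11853 genes measured, 204 did not overlap (1.72%), of which 77 were higher (0.65%) and 127 lower (1.07%) in the ETV1-high class. ETV1 is one of the 77. For 92 of the 204 the class means differed by 1 or more on the log2(signal + 16) scale, 39 of them higher and 53 lower in the ETV1-high class. By comparison, 286 genes differed by that much whether or not the classes overlapped. Among the 204, 64 differed by 1 or more within each replicate number, 32 in each direction. Like labels can also be set side by side in replicate 1, where clone 19 was the one high clone. For 164 of the 204 genes it lay beyond the mean of the 6 low clones by at least 0.5 times the class difference. The direction was fixed by the choice of the 204, so this describes size only and is no support. Neither this count nor that of the 64 was made over all genes, so neither has a share to be read against.

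The same genes were then followed on the MDV3100 arrays. There limma called 2313 of 11853 genes different between the classes at an adjusted p under 0.05 (19.5%), 696 higher (5.87%) and 1617 lower (13.6%) in ETV1-high cultures. With the replicate number as a block it called 1180 genes (9.96%), 353 higher (2.98%) and 827 lower (6.98%). Counts of called genes below are to be read against these shares. In replicate 1 arrays alone it called 423 and in replicate 2 arrays alone, with 2 low arrays, 94. The count was 1478 without clone 14 of replicate 1 and 1495 without clone 15 of replicate 1. Of the 204 genes, 189 were called in the same direction, 69 of the 77 higher ones and 120 of the 127 lower ones, and 175 were called with the block. In replicate 1 alone 107 were called and in replicate 2 alone 52. For 87 of the 204, 32 higher and 55 lower, the MDV3100 signals did not overlap either. That count was not made over all genes, so it has no share to be read against. These shares compare arrays of the same cultures and are not independent of the choice in DMSO. For 31 of the 204 genes, 13 higher and 18 lower, the mean of one class lay under the filter on dim probe sets (a signal of 12.1), so they entered the fit only through the class where they are high and had to differ. All 31 were called, which is no support, and of the other 173 genes 158 were called, or 147 with the block. For genes of this kind named below, ETV1 among them, signals and differences are given as a description without the limma p-value.

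**Figure D2:**
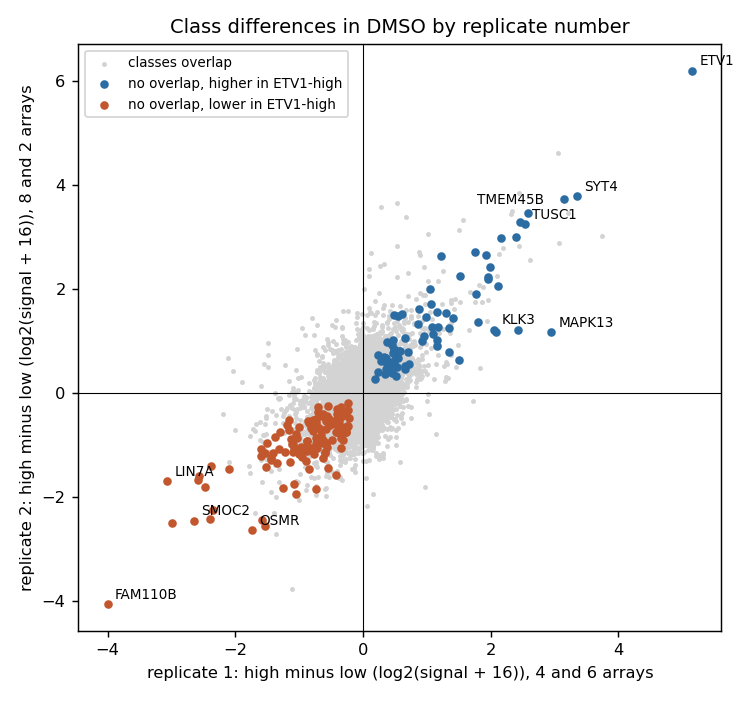
Class difference in DMSO (ETV1-high minus ETV1-low, log2(signal + 16)) of every gene tested, in replicate 1 (x axis, 4 high and 6 low arrays) against replicate 2 (y axis, 8 high and 2 low arrays). The 77 genes higher and 127 lower without overlap lie in opposite corners, with ETV1 at 5.16 and 6.19 and FAM110B at -4.00 and -4.05.

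The genes most clearly higher with ETV1 were led by TMEM45B, a transmembrane protein. Its DMSO signal was 16.2 at the lowest, 25.7 at the median and 99.5 at the highest in the low class and 291.3, 619.8 and 807.6 in the high class. The classes lay apart in both replicate numbers. On the MDV3100 arrays TMEM45B was higher by 3.10 ± 0.37 (SE; limma adjusted p = 9.07e-06, n = 8 and 12). SYT4, a synaptotagmin of vesicle membranes, had 41.8, 265.6 and 340.4 in the low class and 911.3, 2106.8 and 3194.2 in the high class. It was higher by 3.19 ± 0.33 (SE; adjusted p = 1.36e-06) on the MDV3100 arrays. The arrays labelled control 2 had SYT4 signals of 3088.4 in replicate 1, where ETV1 was high, and 41.8 in replicate 2, where it was low. Those labelled clone 1 had 59.5 in replicate 1, where ETV1 was low, and 911.3 in replicate 2, where it was high.

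Several of these genes were at or below a signal of 10.0 on every ETV1-low DMSO array. LOC105371703, an uncharacterised locus on chromosome 17, ran from 0.5 to 4.4 in the low class (median 1.9) and from 72.5 to 248.5 in the high class (median 174.4). KHDC1, a KH-domain protein, ran from 0.2 to 4.1 (median 1.4) and from 46.8 to 222.3 (median 106.0). In the MDV3100 arrays the difference was 3.09 ± 0.26 (SE) for LOC105371703 and 2.61 ± 0.18 (SE) for KHDC1. CWH43, which acts in remodelling of GPI anchors, ran from 0.3 to 9.9 and from 10.9 to 210.6. Its separation was narrow: control 3 of replicate 2 gave 9.9 and control 1 of replicate 2 gave 10.9. In MDV3100 the CWH43 difference was 2.21 ± 0.35 (SE). P2RX5, an ATP-gated ion channel, ran from 0.4 to 10.0 and from 49.4 to 176.3, with a difference of 2.23 ± 0.20 (SE) in MDV3100. NLGN4X, a synaptic adhesion protein, ran from 0.1 to 6.5 and from 9.1 to 375.4. Its high class was itself uneven, with clone 1 of replicate 2 at 9.1, clone 19 of replicate 1 at 11.6 and the other 10 arrays at 81.3 or more. All 5 of these genes entered the fit only through the high class. A fold change on this scale understates the change of such dim genes.

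The remaining genes of the 12 with the largest differences had medians in both classes above that filter. TUSC1, a tumour suppressor candidate, had 62.6, 89.2 and 144.8 in the low class and 500.4, 683.5 and 1279.5 in the high class. It was higher by 2.83 ± 0.20 (SE; limma adjusted p = 3.16e-09) in MDV3100. FGF13, a growth factor homologue that stays in the cell and binds sodium channels, had 54.7, 89.4 and 163.8 against 343.2, 635.2 and 1010.8. It was higher by 2.21 ± 0.24 (SE; adjusted p = 2.11e-06). H2AC8, a histone H2A gene, had 38.2, 63.9 and 87.8 against 181.7, 337.3 and 601.8, and was higher by 2.21 ± 0.19 (SE; adjusted p = 7.67e-08). Histone H2A genes are near-identical copies, so the source of that signal is uncertain. SWAP70, a regulator of Rac and of the actin skeleton, had 7.7, 19.8 and 109.0 against 109.3, 189.4 and 460.2. It is separated by the narrowest of margins, control 2 of replicate 2 at 109.0 and clone 1 of replicate 2 at 109.3, and was higher by 2.37 ± 0.31 (SE; adjusted p = 2.53e-05). Leaving aside those that entered the fit only through the high class, all of the 12 were also called with the replicate block.

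**Figure D3:**
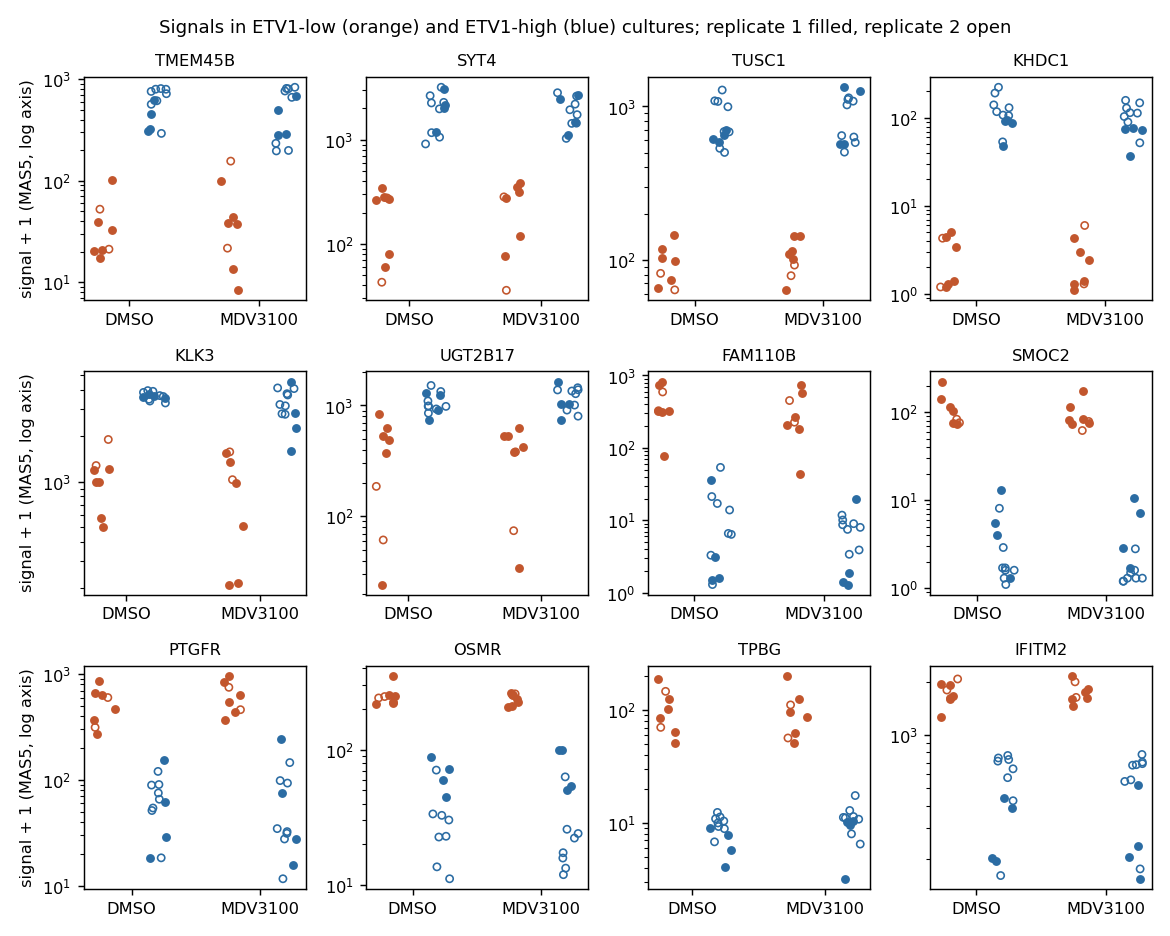
Signal + 1 (MAS5 units, log axis) of 12 genes on every array, in ETV1-low (orange) and ETV1-high (blue) cultures under DMSO and MDV3100, with replicate 1 filled and replicate 2 open. TMEM45B, SYT4, TUSC1, KHDC1, KLK3 and UGT2B17 are higher and FAM110B, SMOC2, PTGFR, OSMR, TPBG and IFITM2 lower in ETV1-high cultures, and of the 12 UGT2B17 alone overlaps in DMSO.

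The gene with the largest opposite difference was FAM110B, a centrosome-associated protein. Its DMSO signal was 76.6, 324.0 and 824.4 in the low class and 0.3, 5.5 and 52.8 in the high class. Every high array thus lay under every low one. On the MDV3100 arrays the FAM110B difference was -3.68 ± 0.32 (SE). SMOC2, a secreted matrix protein, had 73.1, 93.2 and 223.1 against 0.1, 0.7 and 12.2, and a difference of -2.55 ± 0.14 (SE) in MDV3100. TPBG, an oncofetal membrane glycoprotein, had 50.2, 92.8 and 187.1 against 3.1, 8.2 and 11.4, with -2.08 ± 0.17 (SE). ADAMTS3, a protease that trims procollagen, had 46.4, 92.5 and 165.3 against 0.5, 12.4 and 29.0, with -1.81 ± 0.20 (SE; limma adjusted p = 2.52e-06). In the ETV1-high class the medians of these 4 genes were 12.4 or less, and FAM110B, SMOC2 and TPBG entered the fit only through the low class.

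PTGFR and OSMR, both receptor genes, were among the 12 genes with the largest lower values. PTGFR, the receptor for prostaglandin F, had DMSO signals of 268.7, 535.3 and 855.9 in the low class and 17.3, 62.8 and 152.3 in the high class. OSMR, a receptor subunit for the cytokine oncostatin M, had 216.9, 243.6 and 351.8 against 10.1, 32.1 and 86.9. In MDV3100 PTGFR differed by -3.20 ± 0.35 (SE; limma adjusted p = 2.85e-06) and OSMR by -2.36 ± 0.25 (SE; adjusted p = 2.11e-06). FZD4, a Wnt receptor, had 307.0, 392.8 and 548.7 against 88.3, 184.1 and 216.6, with a difference of -1.25 ± 0.17 (SE; adjusted p = 4.27e-05). P2RX7, an ATP-gated channel like P2RX5, had 51.6, 82.5 and 97.5 against 20.6, 30.6 and 50.5, with -1.04 ± 0.10 (SE; adjusted p = 2.02e-07). NR3C2, the mineralocorticoid receptor, did not overlap in DMSO, from 240.5 to 571.0 against 71.9 to 205.0, but its MDV3100 difference of -0.68 did not pass (adjusted p = 0.0798). FZD4, P2RX7 and NR3C2 were picked from the 204 after their values were seen, and receptors such as P2RX5 and LPAR6 were higher with ETV1.

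The other genes of the 12 with the largest lower values had varied roles. MID1, an X-linked ubiquitin ligase on microtubules, had 207.4, 541.0 and 805.0 in the low class and 27.9, 67.3 and 135.0 in the high class. CEL, a carboxyl ester lipase, had 220.4, 315.4 and 560.8 against 15.9, 40.2 and 157.7. SALL2, a zinc-finger transcription factor, had 179.4, 356.1 and 623.6 against 31.0, 53.6 and 90.6. GXYLT2, which adds xylose to Notch-type repeats, had 201.3, 254.1 and 490.0 against 14.0, 40.0 and 108.9. LIN7A, a scaffold protein of cell junctions, had 228.4, 364.6 and 628.9 against 17.4, 65.8 and 172.3. Their MDV3100 differences were -2.62 for MID1, -2.35 for CEL, -2.40 for SALL2, -2.39 for GXYLT2 and -2.46 for LIN7A, and all 5 passed, the largest limma adjusted p being 0.000653. LIN7A overlapped between classes on the MDV3100 arrays, from 210.5 to 588.6 against 18.1 to 237.3. Leaving aside genes that entered the fit through one class only, the 12 higher and 12 lower genes all passed in replicate 1 arrays alone. In replicate 2 arrays alone, with 2 low arrays, TMEM45B, SWAP70, CEL, LIN7A and IFITM2 did not pass (limma adjusted p = 0.104 to 0.264). NLGN4X and CWH43, which entered the fit only through the high class, did not pass there either.

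Genes that androgen induces in prostate cells were split. KLK3, which encodes prostate-specific antigen, was separated cleanly in DMSO: 500.7 at the lowest, 1090.4 at the median and 1890.5 at the highest in the low class, and 3287.2, 3641.7 and 3963.3 in the high class. All 12 high arrays lay in a narrow band above every low array. On the MDV3100 arrays KLK3 was higher by 2.07 ± 0.34 (SE; limma adjusted p = 0.000295). In replicate 2 alone it passed (adjusted p = 0.0111), and in replicate 1 alone it did not (adjusted p = 0.06). TRPM8, an androgen-regulated cation channel, had 38.9, 138.2 and 217.0 in the low class and 277.1, 461.8 and 1290.8 in the high class. It was higher by 2.50 ± 0.49 (SE; adjusted p = 0.00185) in MDV3100, where the classes overlapped and the low class had 3.8, 27.9 and 55.2. ACP3, prostatic acid phosphatase, had 51.8, 114.1 and 183.1 against 289.6, 380.4 and 802.3 in DMSO, and was higher by 1.48 ± 0.38 (SE; adjusted p = 0.0118) in MDV3100. ACP3 was picked from the 204 after its values were seen.

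Other well-known androgen targets did not separate the classes. KLK2, a kallikrein neighbouring KLK3, overlapped, with 770.8 to 2359.3 in the low class and 1665.1 to 3263.8 in the high class, and its MDV3100 difference of 1.01 ± 0.61 (SE) did not pass (limma adjusted p = 0.233). FKBP5, a chaperone of steroid receptors, had medians of 2026.2 and 2427.2 and an adjusted p of 0.425, with a sign that turned when replicate number was blocked. TMPRSS2, a serine protease, had medians of 2915.6 and 2391.8 and an adjusted p of 0.36. Among the 30 androgen-induced genes measured, 5 were called higher and 1 lower on the MDV3100 arrays, and with the block 3 and 1. Those 6 of 30 stand beside 19.5% of all genes called in either direction, and the 5 beside 5.87% called higher. The list's median difference was 0.38 there against -0.07 over all genes, but in DMSO it was 0.13 against -0.05, with 0.04 in replicate 1 and -0.01 in replicate 2. MDV3100 is an antiandrogen, so differences on the MDV3100 arrays hold ETV1 class and response to the drug together. From DMSO to MDV3100, TRPM8 changed by a median of -1.52 in low and -0.47 in high cultures. The medians were -0.445 and -0.16 for KLK3 and -0.57 and -0.39 for KLK2. Whether the response differed between the classes was not tested. Besides KLK3 and TRPM8, the higher calls were UAP1 at 0.53, LRIG1 at 0.40 and ABCC4 at 0.34, and the lower call was PLPP1 at -0.52. FOXA1 and HOXB13, lineage transcription factors of the prostate, had differences of 0.25 and 0.13 that did not pass (adjusted p = 0.372 and 0.353). ETV4 was not analysed here.

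Of the UGT2B enzymes, which inactivate androgens by glucuronidation, UGT2B17 was higher in ETV1-high cultures also with the replicate block. It had DMSO signals of 23.3, 429.9 and 836.9 in the low class and 731.6, 985.9 and 1513.4 in the high class, overlapping through clone 9 of replicate 1 at 836.9 and control 2 of replicate 1 at 731.6. The low class was uneven, at 23.3 in clone 1 of replicate 1 and, in replicate 2, 60.3 in control 2 and 185.4 in control 3. The other 5 low arrays had 372.1 to 836.9. On the MDV3100 arrays the UGT2B17 classes did not overlap, from 33.1 to 629.9 against 743.7 to 1643.1, and the difference was 1.96 ± 0.38 (SE; limma adjusted p = 0.00148; with the block 0.00356). In replicate 1 alone UGT2B17 did not pass (adjusted p = 0.128), and in replicate 2 alone it did (adjusted p = 0.0158). With an array left out it passed in 20 of 20 fits. UGT2B15 was higher by 1.16 ± 0.40 (SE; adjusted p = 0.046) and UGT2B28 by 1.96 ± 0.66 (SE; adjusted p = 0.043). Neither passed with the block (adjusted p = 0.0555 and 0.132), and with an array left out UGT2B15 passed in 5 of 20 fits and UGT2B28 in 8 of 20. UGT2B28 in DMSO gave 0.68 in replicate 1 and 3.38 in replicate 2. Between clone 19 and the 6 low clones of replicate 1 the DMSO difference was 1.35 for UGT2B17, 0.06 for UGT2B15 and -1.30 for UGT2B28. In the low class UGT2B15 was 74.2 in clone 1 of replicate 1, 109.3 in control 2 and 306.7 in control 3 of replicate 2, and from 611.2 to 1417.4 on the other 5 arrays, which lie within the high-class range of 536.0 to 1719.6. The 3 genes are close copies, so probes may share signal. The fourth of the 14 steroid metabolism genes called higher was CYP11A1, the enzyme that begins steroid synthesis from cholesterol, at 1.07 ± 0.24 (SE), a gene that entered the fit only through the high class, and 0 were called lower. With the block 2 of the 14 were called higher and 0 lower. In the androgen-repressed list, 3 of 11 were called higher and 0 lower: UGT2B15, UGT2B17 and PKIB, an inhibitor of protein kinase A, at 1.37 ± 0.30 (SE; adjusted p = 0.00344), or 2 and 0 with the block. UGT2B15 and UGT2B17 stand in both lists, whose counts are to be read beside the 5.87% of all genes called higher.

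The ETS family and the neighbours of ETV1 gave few further genes. Of 19 ETS genes measured, 3 were called higher on the MDV3100 arrays, ETV1, ELF1 and ETS2, and 3 lower, ELF4, SPDEF and ELK1, beside 5.87% and 13.6% of all genes. ETV1 defines the classes and is no result of this count. ELF1 had DMSO signals of 114.4, 135.0 and 188.9 in the low class and 179.9, 256.4 and 320.3 in the high class, and was higher by 0.91 ± 0.15 (SE; limma adjusted p = 0.000434). ELF4 differed by -0.78 ± 0.20 (SE; adjusted p = 0.00991), SPDEF, a luminal ETS factor, by -0.50 (adjusted p = 0.0262) and ETS2 by 0.39 (adjusted p = 0.0316). SPDEF and ETS2 did not pass with the block. ETV5, the PEA3 relative of ETV1, had medians of 39.2 and 32.0 in DMSO and a difference of -0.39 ± 0.32 (SE; adjusted p = 0.378) that turned sign in replicate 1 alone. MIPOL1, which lies beside the known insertion of ETV1, overlapped in DMSO, from 148.1 to 247.3 against 222.5 to 427.6, and its difference of 0.35 ± 0.14 (SE) gave an adjusted p of 0.0814, or 0.0411 with the block. Of 12 genes around MIPOL1 on chromosome 14, 1 was called, MBIP at 0.48 (adjusted p = 0.0357), and not with the block.

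Of 12 genes near ETV1 on chromosome 7, 3 were called higher and 2 lower, or 4 and 1 with the block, beside 19.5% of all genes called in either direction. VWDE, which encodes a von Willebrand factor domain protein, ran opposite to ETV1: 17.8, 40.4 and 53.0 in the low class and 1.0, 8.1 and 34.1 in the high class in DMSO, with a difference of -1.26 ± 0.14 (SE) and no overlap in MDV3100. It entered the fit only through the low class. DGKB, a diacylglycerol kinase gene beside ETV1, was higher by 0.44 ± 0.11 (SE; limma adjusted p = 0.0117), and TSPAN13, a tetraspanin, by 0.49 ± 0.12 (SE; adjusted p = 0.00904). TWIST1, a mesenchymal transcription factor, was higher by 1.08 ± 0.33 (SE; adjusted p = 0.0278), and passed in 18 of 20 fits with an array left out. Its DMSO signals overlapped, from 24.2 to 129.5 in the low class against 73.8 to 702.7 in the high class. ANKMY2 was lower at -0.27 (adjusted p = 0.0378), which the block did not keep. AGR2, a secretory-pathway protein, shows a large mean difference without following ETV1. Its DMSO signal was 69.1 in clone 19 of replicate 1 and 159.2 in clone 1 of replicate 2, both ETV1-high, and 2094.9 or more in the other 6 clones of replicate 2. Its adjusted p was 0.0505.

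Among genes known as targets of ETS factors or feedback genes of ERK signalling, 2 of 14 were called higher and 1 lower, and with the block 1 and 0. Those 3 of 14 stand beside 19.5% of all genes called in either direction. MMP7, a matrix protease, did not overlap in DMSO, with 0.7, 5.6 and 11.2 in the low class and 11.7, 31.8 and 201.1 in the high class. It entered the fit only through the high class, and its MDV3100 difference of 1.27 ± 0.36 (SE) did not pass with the block (limma adjusted p = 0.0868). ADAM9, a membrane-bound protease, was higher by 0.55 ± 0.12 (SE; adjusted p = 0.00304), also with the block (adjusted p = 0.0145). PHLDA1, a feedback gene of growth factor signalling, was lower at -0.54 ± 0.18 (SE; adjusted p = 0.0412), and passed in 10 of 20 fits with an array left out. EGR1, an immediate-early transcription factor, had DMSO signals from 189.9 to 526.2 and from 59.2 to 952.9, and did not pass (adjusted p = 0.115).

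Of 9 basal and mesenchymal genes measured, 5 were called higher and 0 lower, or 4 and 0 with the block, beside 5.87% and 2.98% of all genes called higher. Of the 5, SPARC and TGFB2 entered the fit only through the high class. The list's median difference was 1.05 on the MDV3100 arrays and 0.92 in DMSO, where it was 0.25 in replicate 1 and 1.24 in replicate 2, against -0.07 and -0.05 over all genes. FN1, fibronectin of the cell matrix, did not overlap in either treatment. Its DMSO signals were 546.3, 708.8 and 1019.3 against 1282.2, 2027.7 and 2719.2, and in MDV3100 it was higher by 1.30 ± 0.17 (SE; limma adjusted p = 3.64e-05). ITGA6, a laminin-binding integrin, was higher by 1.05 ± 0.30 (SE; adjusted p = 0.02) and the difference of SPARC, a matrix protein, was 0.70 ± 0.17 (SE). TGFB2, a secreted growth factor, differed by 1.86 ± 0.63 (SE), with 0.25 in replicate 1 and 1.92 in replicate 2 in DMSO, and did not pass with the block (adjusted p = 0.195). VIM, the mesenchymal filament vimentin, did not pass (adjusted p = 0.556), with -0.96 in replicate 1 and 1.25 in replicate 2 in DMSO. LGALS1, a galectin, had differences of -0.43 in DMSO and -0.42 in MDV3100 and did not pass (adjusted p = 0.0546). TWIST1 is in this list as well as among the chromosome 7 genes. The other 15 genes of the list, such as keratins KRT5 and KRT14, were not analysed here.

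Of 19 interferon-induced and antigen-presentation genes, 0 were called higher and 7 lower, beside 13.6% of all genes called lower, and 12 did not pass. With the block 0 were called higher and 5 lower, which were MX1, IFITM1, TAP1 and PSMB9 of the 7 and IFIT1 (adjusted p = 0.0443). The list's median was -0.29 on the MDV3100 arrays and -0.18 in DMSO, where 14 of the 19 were lower and 5 higher, such as PSMB8 at 0.86 and B2M at 0.47. IFITM2, an interferon-induced antiviral membrane protein outside that list and among the 12 genes above, had 1265.7, 1736.8 and 2084.8 in the low class and 159.5, 506.7 and 767.7 in the high class. It differed by -1.99 ± 0.28 (SE; limma adjusted p = 7.07e-05) in MDV3100. IFITM1, its relative, had 17.7, 31.5 and 50.2 against 3.8, 8.4 and 15.1, with a difference of -0.86 ± 0.15 (SE), and entered the fit only through the low class. The IFITM genes are close copies, so the probe sets may share signal. MX1, an antiviral GTPase, ran from 22.4 to 33.1 against 21.2 or less, with -0.53 ± 0.11 (SE; adjusted p = 0.00316). PSMB9, an immunoproteasome subunit, differed by -0.83 (adjusted p = 0.0157), IRF7 by -0.56, TAP1 by -0.54, IFIT2 by -0.49 and HLA-E by -0.43, each with an adjusted p of 0.0379 or less. IRF7, IFIT2 and HLA-E did not pass with the block (adjusted p = 0.0873, 0.073 and 0.135).

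**Figure D4:**
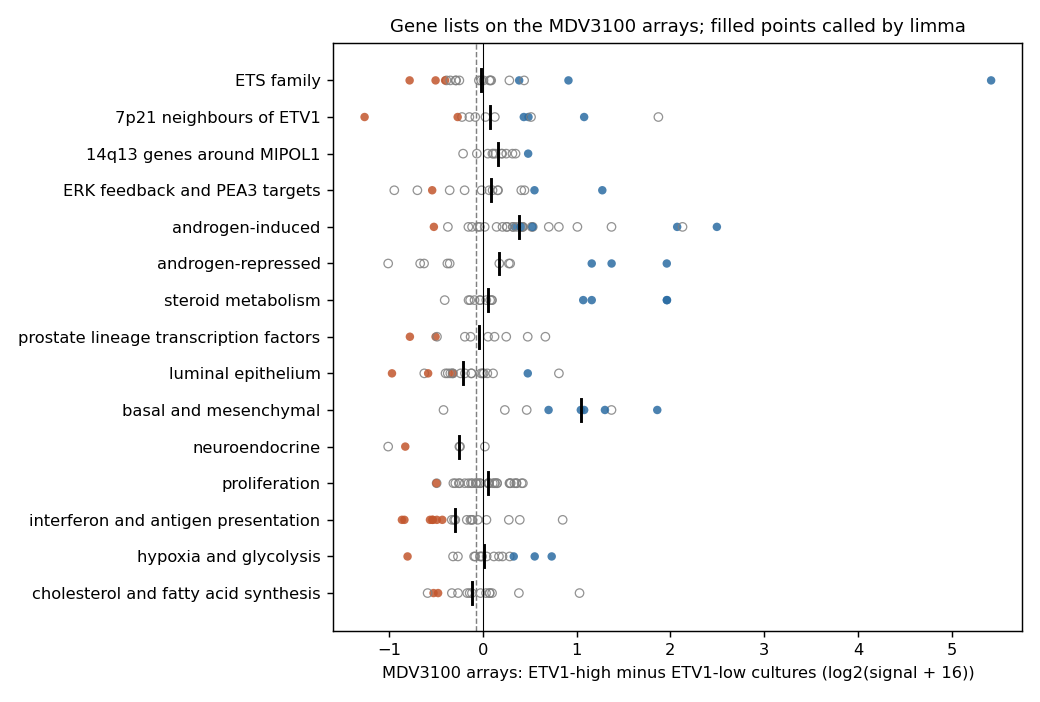
Difference between ETV1-high and ETV1-low cultures on the MDV3100 arrays (log2(signal + 16)) for each measured gene of 15 lists, with filled points for genes called by limma, black bars for list medians and a dashed line for the median of all genes, -0.07. The basal and mesenchymal genes have a median of 1.05 with 5 of 9 called higher, beside 5.87% of all genes. The interferon genes have a median of -0.29 with 7 of 19 called lower, beside 13.6% of all genes. Of these, SPARC, TGFB2 and IFITM1 entered the fit through one class only.

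The remaining lists gave few calls. Of 32 proliferation genes, 0 were called higher and 1 lower, FOXM1, a cell-cycle transcription factor, at -0.49 (limma adjusted p = 0.0148), which did not pass with the block. Of 20 luminal epithelial genes, CLDN7, a tight-junction claudin, was called higher at 0.48 (adjusted p = 0.00429), and CLDN3, SPINT1 and PKP3 lower, of which SPINT1 and PKP3 did not pass with the block (adjusted p = 0.155 and 0.139). CLDN3 had DMSO signals of 180.6, 223.9 and 261.3 in the low class and 34.5, 115.9 and 202.0 in the high class, with a difference of -0.97 ± 0.20 (SE; adjusted p = 0.00266). Of 5 neuroendocrine genes, UCHL1, a neuronal ubiquitin hydrolase, was lower at -0.83 ± 0.28 (SE; adjusted p = 0.043; with the block 0.0047). With an array left out, UCHL1 passed in 9 of 20 fits. Of 10 prostate lineage factors, MYC and SPDEF were lower, and neither passed with the block. Of 16 hypoxia and glycolysis genes, 3 were higher and 1 lower, led by EGLN3, an oxygen-sensing hydroxylase, at -0.80 (adjusted p = 0.00424) and SLC2A1, a glucose transporter, at 0.55 (adjusted p = 0.00372). With the block these were the 2 that passed, while ANKRD37 and BNIP3 did not (adjusted p = 0.192 and 0.0735). Of 15 genes of cholesterol and fatty acid synthesis, 0 were higher and 2 lower, LSS and DHCR7, which did not pass with the block. These shares can be read against the 5.87% of all genes called higher, the 13.6% called lower and the 19.5% called in either direction.

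Chromosomes 13 and 21, which had the highest and the lowest median class difference in DMSO, were picked after their values were seen. Chromosome 13 held 13 of the 77 genes higher with ETV1. Of 205 genes placed on it by the RefSeq gene table and measured, 0 were lower without overlap, so that 6.34% separated the classes, against 1.72% of all genes. The median difference of its genes was 0.29 in DMSO, 0.31 in replicate 1 and 0.33 in replicate 2, against -0.05 over all genes, and 79% of them were higher against 42.4% of all. On the MDV3100 arrays 74 of the 205 were called higher by limma (36.1%, against 5.87% of all genes) and 7 lower, or 55 and 3 with the block. The 13 genes were EEF1AKMT1, RFC3, ALG5, COG6, WBP4, LCP1, LRCH1, SUCLA2, LPAR6, DIAPH3, TGDS, TM9SF2 and ING1. They were spread along the chromosome, from the 10th of the 205 measured genes in order to the 184th. LCP1, an actin-bundling protein, had the largest difference, 1.32 in DMSO and 1.42 ± 0.19 (SE; adjusted p = 4.59e-05) in MDV3100. LPAR6, a lysophosphatidic acid receptor, differed by 1.25 and by 1.20 ± 0.13 (SE; adjusted p = 2.19e-06). RFC3, a subunit of the DNA clamp loader, was the one that did not pass in MDV3100 (adjusted p = 0.0798).

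Each array was also given a relative level for the chromosome, the mean over its genes of the log2 value less that gene's mean over the 40 arrays, set against the same mean over all genes of the array. For chromosome 13 this was -0.32 at the lowest, -0.22 at the median and 0.05 at the highest in the ETV1-low DMSO arrays and 0.07, 0.14 and 0.25 in the ETV1-high ones. The classes did not overlap, and clone 24 of replicate 1 was the low array nearest to the high ones. On the MDV3100 arrays they did overlap, from -0.406 to 0.099 against -0.003 to 0.389. Chromosome 21 had the lowest median, -0.25, with 16.9% of its 136 genes higher. There the relative level ran from 0.08 to 0.18 in the low class and from -0.24 to 0.13 in the high class, and the values of -0.16 or less were those of clones 9, 10, 14, 15, 19 and 24 of replicate 2 alone. Of the other 6 high arrays, 4 lay below every low array, from -0.04 to 0.07, and 2 within the range of the low class, so the ranges overlapped. In replicate 1 the median difference of its genes was -0.115, against -0.03 over all genes. Copy number was not measured in these data.

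**Figure D5:**
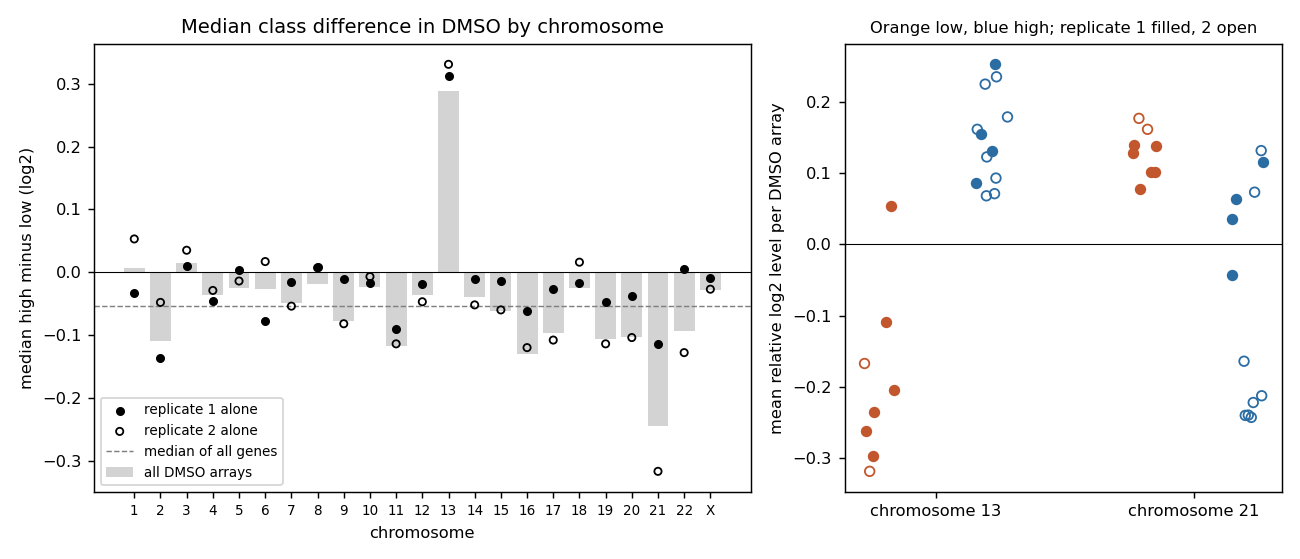
Left, median class difference in DMSO (ETV1-high minus ETV1-low, log2) of the genes on each chromosome, as bars for all arrays, filled points for replicate 1 and open points for replicate 2, with a dashed line at the median of all genes. Right, mean relative log2 level of chromosomes 13 and 21 on each DMSO array, orange for ETV1-low and blue for ETV1-high; chromosome 13 separates the classes, at 0.05 or less against 0.07 or more, and for chromosome 21 the ranges overlap, at 0.08 to 0.18 against -0.24 to 0.13.

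Other genes of the 204 that are well known were looked up after their values were seen. GDF15, a stress-induced secreted factor, had DMSO signals of 150.5, 271.0 and 461.0 in the low class and 911.0, 1136.7 and 1564.6 in the high class, and was higher by 1.32 ± 0.19 (SE; limma adjusted p = 9.17e-05) in MDV3100. TRPM4, a calcium-activated cation channel, had 66.4, 79.6 and 95.0 against 183.8, 363.4 and 710.7, and was higher by 2.18 ± 0.27 (SE; adjusted p = 1.31e-05). APP, the amyloid precursor protein, had 510.6, 715.4 and 924.3 against 1149.5, 1600.8 and 2627.5, while BACE2, a protease that cleaves it, differed by -1.02 ± 0.17 (SE) and entered the fit only through the low class. CAVIN1, a coat protein of caveolae, had 47.2, 75.7 and 140.2 against 10.2, 18.3 and 32.8, and differed by -1.58 ± 0.20 (SE; adjusted p = 1.85e-05). PTGS1, a cyclooxygenase that starts prostaglandin synthesis, ran from 57.0 to 122.4 against 55.3 or less, and differed by -1.24 ± 0.27 (SE; adjusted p = 0.0035). FOLH1, prostate-specific membrane antigen, separated the classes by a small step, 1150.6 to 1349.3 against 814.4 to 1150.3, with -0.39 ± 0.09 (SE; adjusted p = 0.00454).

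The arrays carried the markers of LNCaP cells in both classes. The summed signal of 13 measured LNCaP markers, such as KLK2, KLK3, FOLH1 and HOXB13, ran from 17792.7 to 23262.0 in the ETV1-low DMSO arrays and from 19783.6 to 25426.9 in the high ones. The summed signal of 8 measured immune markers was at most 22.1 and 13.7, of 8 endothelial markers at most 61.2 and 148.6, of 10 fibroblast markers at most 219.6 and 239.2, and of 9 markers of basal-like prostate lines at most 375.6 and 718.3. The array's own 3 to 5 prime ratio of actin, a sign of RNA quality, had a median of 3.846 in the low and 3.34 in the high class. Within replicate 1 the medians were 3.978 and 4.034 and within replicate 2 3.333 and 3.213, so the ratio moved with the replicate number more than with the class. The median signal of an array was 11.5 to 14.0 in the low class and 10.7 to 12.3 in the high class. The part of RNA quality and of array median in the class differences was not tested.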

How the data were processed

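The deposited values are signal intensity per Affymetrix probe set on 40 arrays, which the submitters' processing notes credit to MAS5, of a version not given in the sources used here. Per the labels' protocols, RNA was amplified and biotin-labelled before hybridisation. The deposited intensity had a trimmed mean (2% off each end) of 150.0 on every array, so it was already scaled, and it was not normalized again. Array medians lay between 10.7 and 18.4 and 75th percentiles between 125.3 and 150.9. Precision is limited by how many arrays there are.

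Values were taken as log2(signal + 16). Probe sets whose mean reached the median of all, a signal of 12.1, were kept (27338 of 54675), and for each gene the brightest probe set that the platform annotation gives to it alone was used, which gave 11853 genes. Of the 54675 probe sets, 41097 had 1 gene, 1801 several and 11777 none; 0 symbols were updated through RefSeq (GRCh38.p14) and 42 gene identifiers had no match there.

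Classes on the MDV3100 arrays were compared with limma 3.58.1 in R 4.3.3 with Benjamini-Hochberg adjustment over all genes at 0.05, and ETV1 with a 2-sided exact permutation test. The limma step was tested on simulated data. Named genes are the 12 higher and 12 lower with the largest DMSO difference among non-overlapping genes, a fixed set that begins with ETV1, and up to 3 genes of each of 15 lists with the largest DMSO difference; others are said to be picked afterwards. The members, lists and rule were chosen with earlier results of these data known. The labels do not say what a replicate number stands for, so it was used as a block only in an alternative. Other alternatives were the pseudocount, filter, quantile normalization, class cut, variance trend, line label as a random block, each replicate number or the clones alone, and leaving out each array.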

Additional observations from a re-analysis of the deposited data

Results flagged for a closer look

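Within the ETV1-low class, 1 array stood apart from the other 7 in 10 of 142 groups looked at, where chance alone is expected to pick out about 1 group in 20. P2RX5 was 13.1 in clone 15 of replicate 1 under MDV3100, against 5.2 to 7.9 on the others. CWH43 was 9.9 in control 3 of replicate 2 under DMSO, against 0.3 to 3.6. H2AC8 was 31.7 in clone 24 of replicate 1 under MDV3100, against 62.9 to 103.5. FAM110B was 76.6 in clone 9 of replicate 1 under DMSO, against 313.0 to 824.4, and that array is the low one nearest to the high class for this gene. OSMR was 351.8 in clone 1 of replicate 1 under DMSO, against 216.9 to 253.2. GXYLT2 was 613.0 in clone 9 of replicate 1 under MDV3100, against 226.9 to 337.2. In control 3 of replicate 2 under DMSO, VWDE was 17.8, against 37.6 to 53.0, and MBIP was 98.7, against 151.4 to 209.4. FADS2, a fatty acid desaturase, was low in clone 24 of replicate 1 in both treatments, at 64 under DMSO against 141.5 to 252.1 and at 59.3 under MDV3100 against 143.6 to 249.5. A test of whether the class difference itself differed between replicate numbers, added after the data were seen, called 0 of 11853 genes with limma, with 1497 at an unadjusted p under 0.05.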

How the results depend on the processing

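ETV1 chose the classes in DMSO, so its difference on the MDV3100 arrays was likely to hold from the outset. Cuts of 100 and 400 gave the same classes. The ETV1 difference kept its direction and passed under every alternative run, which speaks only of ETV1 staying with its culture. It was 5.32 to 5.69 with an array left out, 5.33 and 5.66 in either replicate alone, 7.45 and 3.93 with pseudocounts of 1 and 64, and 1.55, 3.23, 3.23 and 3.48 on the other probe sets. The count of 2313 genes called on the MDV3100 arrays became 1155 with a filter at the 75th percentile, where fewer genes were tested, 423 in replicate 1 alone, 94 in replicate 2 alone and 3986 in clones alone. With the replicate block it was 1180, of which 1065 were among the 2313, and with line label as a random block 1510. It ranged from 1478 to 3187 with an array left out. The 204 non-overlapping genes became 105 at the stricter filter, 1013 in replicate 1 alone, 2455 in replicate 2 alone and 947 in clones alone, as fewer arrays have to separate, and 205 to 268 with an array left out. Of 71 named genes, 10 lost their call and 1, MIPOL1, gained one under the replicate block, while the 24 genes with the largest differences kept theirs. For those of the 24 that entered the fit through one class only, such as ETV1, KHDC1 and FAM110B, a kept call is no support. Signs turned for genes that were not called: in replicate 1 alone ETV5 (0.31), FKBP5 (-0.38), GEMIN2 (-0.02), ONECUT2 (0.18), KRT19 (-0.17), CDC6 (-0.23) and PSMB8 (-0.07), in replicate 2 alone ENO2 (-0.35) and NDRG1 (0.02), in clones alone TMPRSS2 (0.07), HOXB13 (-0.05), ENO2 (-0.21) and NDRG1 (0.42), and with the replicate block FKBP5 (-0.07) and CDC6 (-0.02). With an array left out ENO2 ranged from -0.10 to 0.09 and NDRG1 from -0.12 to 0.08. The cause of these turns was not tested. MAS5 signals near the filter limit what can be said of the dimmest class.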

Other observations

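Further genes whose DMSO signals did not overlap between the classes, picked after their values were seen, fall to signalling, adhesion and metabolism. MAPK13, a p38 stress kinase, had 2.1, 5.5 and 30.8 (lowest, median and highest) in the ETV1-low class and 32.4, 80.7 and 213.3 in the ETV1-high class, and NRP1, a co-receptor for semaphorins and VEGF, had 199.9, 302.8 and 359.5 against 364.3, 755.6 and 1141.8. NIBAN1, a stress-response protein, had 6.3, 23.5 and 40.0 against 63.5, 154.6 and 364.3. Lower in the high class were NECTIN3, an adhesion protein, with 32.7, 64.2 and 120.5 against 1.2, 5.8 and 16.7, and UGT8, which makes galactosylceramide, with 98.3 to 290.1 against 82.2 or less. In MDV3100, limma gave MAPK13 1.62 (adjusted p = 0.00224), NRP1 0.97 (adjusted p = 0.000746), NIBAN1 2.02 (adjusted p = 9.51e-08), NECTIN3, which reached the filter only through the low class, -1.57 and UGT8 -1.80 (adjusted p = 0.000155).

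The genes of the set that did not pass on the MDV3100 arrays numbered 15, of which 8 were higher and 7 lower in DMSO. They included GCH1, which begins tetrahydrobiopterin synthesis, at 0.41 in DMSO and 0.38 in MDV3100 (limma adjusted p = 0.0789), and CPD, a carboxypeptidase, at -0.59 and -0.37 (adjusted p = 0.142). Of these 15, NR3C2 had the largest DMSO difference, -1.14.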
